A study of Mus musculus with 2 samples.

Results

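The nuclear-encoded genes of oxidative phosphorylation were described across the cell types of the normal mouse thoracic aorta. The set holds every feature whose symbol begins as a subunit of respiratory complex I (*Ndufa*, *Ndufb*, *Ndufc*, *Ndufs* or *Ndufv* with a number), complex II (*Sdha* to *Sdhd*), complex III (*Uqcr*), complex IV (*Cox4* to *Cox8*) or complex V (*Atp5*), with symbols ending in -ps left out. It counts 84 of the 32287 features: 37 of complex I, 4 of complex II, 8 of complex III, 18 of complex IV and 17 of complex V. The rule uses names alone and no measured value. By convention of these symbols *Ndufa4* and *Ndufa4l2* count with complex I here, although the NDUFA4 protein is known as a component of complex IV.

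Oxidative phosphorylation passes electrons from NADH (complex I) and succinate (complex II) through complex III to oxygen at complex IV, and the proton gradient that this builds drives ATP synthesis at complex V. Complexes I, III, IV and V join subunits from the nucleus to subunits that mitochondrial DNA encodes, whereas complex II is made by nuclear genes alone. Most nuclear subunits are used by every nucleated cell, but a few have alternative forms that are known from particular tissues: *Cox4i2* from lung and from cells exposed to low oxygen, *Cox6a2*, *Cox7a1* and *Cox8b* from heart and skeletal muscle, *Cox6b2* from testis, and *Ndufa4l2* as a target of the hypoxia-inducible factor. Arterial smooth muscle cells (SMCs) are contractile cells that hold a lasting tension, which they pay for with both glycolysis and respiration.

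The data are single-cell RNA sequences from 2 C57BL/6J GFPiSMC mice, 1 thoracic aorta each, the wild-type control of the study (1 group, n = 2 aortas). GFPiSMC mice carry Myh11-CreERT2, a tamoxifen-inducible Cre recombinase driven by the *Myh11* promoter and therefore active in SMCs, and the reporter mT/mG, which Cre switches from tdTomato to GFP. Both animals were 12 weeks old and had received tamoxifen (1 mg per day over 5 days) from 3 weeks of age; the study's methods describe its mice as male. Digestion was cold, and the sort took live singlets whether or not they carried GFP, so that every cell type of the wall could enter.

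The files held 8947 and 6263 cells, with 47009780 and 30919996 UMIs (unique molecular identifiers, which count captured RNA molecules). After filtering and removal of called doublets 6539 and 4614 cells were analysed; the barcode sets of the aortas shared 18 barcodes. Clusters were named from marker genes, with the subunit genes and the mitochondrial genes kept out of the clustering, so a name such as SMC means SMC-like below and can differ from the study's. There were 2221 and 1620 SMCs, 1641 and 1137 fibroblasts, 785 and 729 endothelial cells, 275 and 158 mesothelial cells, 962 and 596 myeloid cells, 619 and 360 lymphocytes, and 23 and 14 erythroid cells; 13 cells stayed unnamed. The summed SMC markers stood at 43238 and 41174 CPM (counts per 1000000 UMIs) in SMCs and, in fibroblasts, at 2831 and 2603 CPM.

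SMCs gave the largest share of their UMIs to the nuclear-encoded subunits among the 6 nucleated types. The 84 genes made up 2.47% of SMC UMIs in aorta 1 and 2.45% in aorta 2 (mean 2.46% ± 0.0125, SD, n = 2). The other nucleated types followed with 2.16% ± 0.066 in mesothelial cells, 1.97% ± 0.0034 in lymphocytes, 1.92% ± 0.043 in myeloid cells, 1.83% ± 0.051 in endothelial cells and 1.58% ± 0.023 in fibroblasts. No neighbours in this order overlapped over the 2 aortas, but the gap between lymphocytes and myeloid cells was little more than the myeloid SD. A cycling cluster of 42 and 32 lymphocytes had 3.06% and 2.86%, whereas the largest lymphocyte cluster had 1.79% and 1.70%. The place of lymphocytes above myeloid and endothelial cells rests on this cycling cluster. Erythroid cells had 0.404% and 0.173%. SMCs therefore held 48.1% and 50.6% of the subunit UMIs of all analysed cells, against 40.4% and 42.2% of all UMIs, whereas fibroblasts held 19.2% in both aortas against 24.9% and 25.04%.

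The order of the types depended on what the subunits were measured against. Ribosomal protein transcripts took 32.3% and 30.02% of UMIs in lymphocytes but 12.3% and 11.5% in SMCs. Out of the UMIs that remain when mitochondrial and ribosomal protein genes are set aside, the subunits made up 3.07% and 2.96% in lymphocytes, 2.99% and 2.94% in SMCs, and 1.88% and 1.84% in fibroblasts. On this scale lymphocytes were above SMCs within each aorta, although the types overlapped between aortas, and fibroblasts stayed lowest of the nucleated types. The lymphocyte values include the cycling cluster, whose subunits made up 3.06% and 2.86% of all its UMIs. Values without that cluster are not given on this scale. Per cell, the mean was 185 and 176 subunit UMIs in SMCs and 99.9 and 95.5 in fibroblasts, a difference that includes the larger libraries of SMCs (median 7736 and 7481.5 UMIs, against 5919 and 5747).

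**Figure D1:**
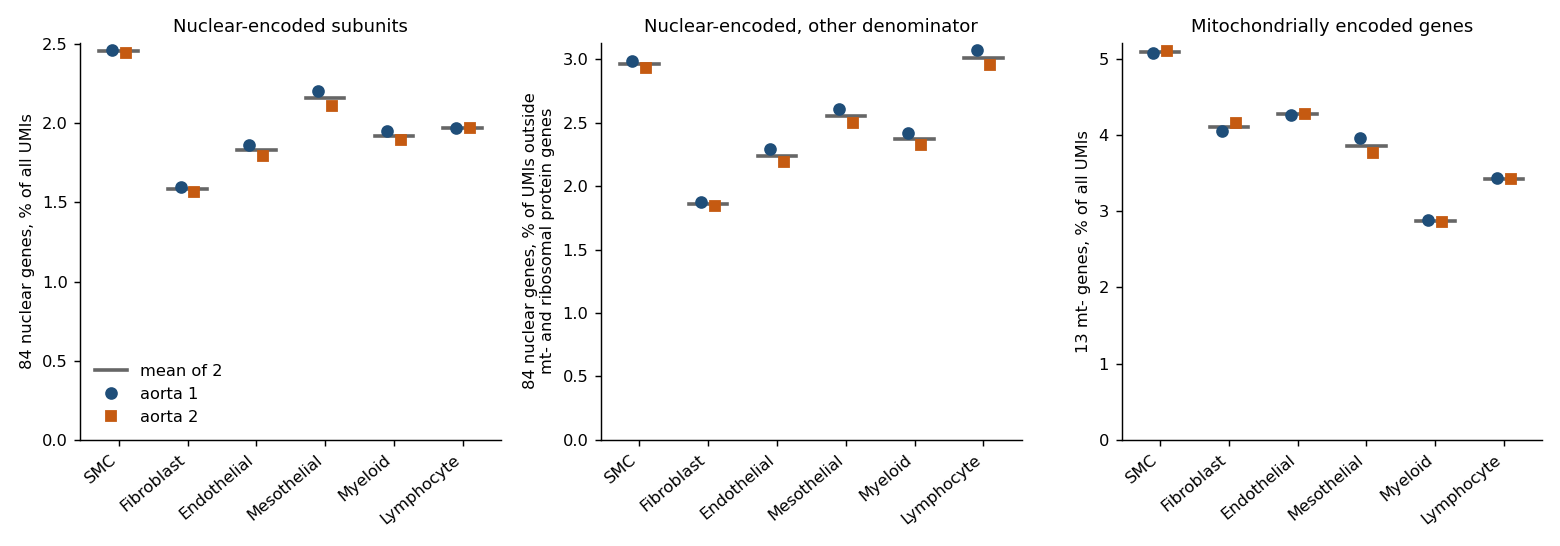
Summed UMIs of the 84 nuclear-encoded subunit genes as a percentage of all UMIs (left) and of the UMIs outside mitochondrial and ribosomal protein genes (middle), and of the 13 mitochondrially encoded genes as a percentage of all UMIs (right), by cell type. Each point is 1 aorta and each line the mean of 2; SMCs lie highest in the left and right panels, at 2.46% and 5.09%, and overlap with lymphocytes in the middle panel.

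The 13 protein-coding genes of mitochondrial DNA (*mt-Nd1* to *mt-Nd6* with *mt-Nd4l*, *mt-Cytb*, *mt-Co1* to *mt-Co3*, *mt-Atp6* and *mt-Atp8*) gave another order below the SMCs. They made up 5.08% and 5.11% of UMIs in SMCs, 4.27% and 4.28% in endothelial cells, 4.06% and 4.16% in fibroblasts, 3.96% and 3.76% in mesothelial cells, 3.44% and 3.42% in lymphocytes, and 2.88% and 2.85% in myeloid cells. Cells at 10% or more had been removed, so the mitochondrial share is limited from above in every type. For each mitochondrially encoded UMI there were 0.677 and 0.663 nuclear subunit UMIs in myeloid cells, 0.574 and 0.575 in lymphocytes, 0.556 and 0.561 in mesothelial cells, 0.486 and 0.480 in SMCs, 0.437 and 0.419 in endothelial cells, and 0.394 and 0.377 in fibroblasts. Among the nucleated types, fibroblasts thus had the lowest and myeloid cells the highest ratio in each aorta, and SMCs, with the highest level of both groups of genes, stood in between. In the cycling lymphocyte cluster nuclear subunits made up 3.06% and 2.86% of UMIs and mitochondrially encoded genes 3.03% and 2.79%. The place of lymphocytes above mesothelial cells in this ratio rests on that cluster.

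Against fibroblasts, the nuclear total was 1.55-fold higher in SMCs (log2 ratio 0.63 ± 0.013, SD, n = 2) and the mitochondrially encoded total 1.24-fold higher (0.31 ± 0.020). Both ratios differed between the aortas by far less than they differed from each other. Against endothelial cells the log2 ratios were 0.43 (nuclear) and 0.25 (mitochondrial). The order turned round against mesothelial cells (0.19 and 0.40), myeloid cells (0.35 and 0.83) and lymphocytes (0.32 and 0.57), where the mitochondrially encoded total differed more than the nuclear one. A cluster of 492 and 324 SMCs stood apart by its low median of 1815.5 and 1936 UMIs. Its nuclear subunits made up 3.05% and 2.90% of UMIs, above all other SMC clusters, and its nuclear RNA *Malat1* stood at 12232 and 16944 CPM. Without this cluster the nuclear log2 ratio of SMCs to fibroblasts was 0.61, so the difference was nearly as large without it.

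Each gene was then compared on its own. Of the 84 genes, 81 passed the filter on low counts; *Cox7b2*, *Cox8b* and *Cox8c* did not. Every gene was tested on UMIs summed per aorta and cell type, in a fit of 7 cell types with 2 aortas each (edgeR's quasi-likelihood test with Benjamini-Hochberg adjustment over 13964 genes, called at an adjusted p under 0.05). Fold changes below are on the log2 scale after TMM scaling. Their standard error (SE) was derived from the fold change and the F statistic of the test. All 81 differed among the cell types, where the background was 92.7% over all genes and 99.5% over those at 100 CPM or more, so this count does not set them apart. By level, 39 of the 84 were highest in SMCs in both aortas, 10 in mesothelial cells, 9 in lymphocytes, 6 in myeloid cells, 2 in endothelial cells and 1 in fibroblasts, and for 17 the highest type differed between the aortas. The 39 include *Cox8c*, which had 0 UMIs in every type, because ties were counted for SMCs. Fibroblasts were the lowest type for 35, lymphocytes for 12, endothelial cells for 7, myeloid cells for 5 and mesothelial cells for 2. The 2 genes counted as lowest in SMCs were ties at 0 UMIs. *Cox8c* was tied over all types, and *Cox6a2* with endothelial and mesothelial cells in both aortas. Among the 63 subunit genes at 100 CPM or more, SMCs were the highest type for 50.8%, where they were for 18.7% of all 1665 genes at such levels. Fibroblasts were the lowest type for 47.6% of these subunit genes and for 15.3% of all these genes.

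**Figure D2:**
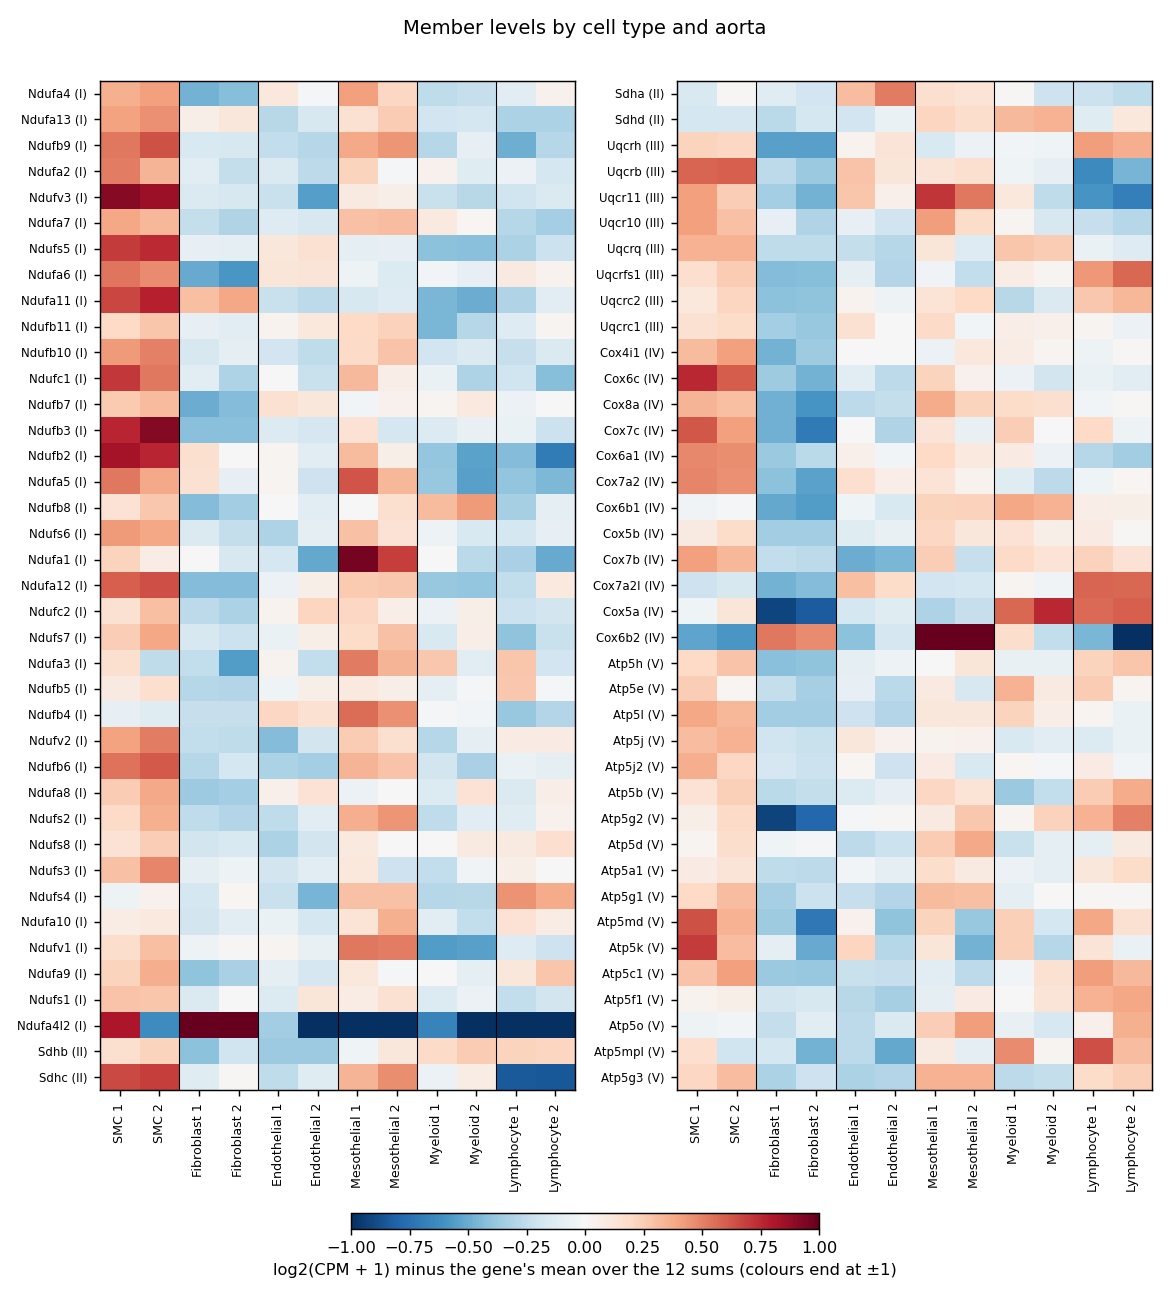
Level of 78 subunit genes in each cell type and aorta as log2(CPM + 1) minus the gene's mean over the 12 sums, with the complex in brackets; the 6 genes under 10 CPM on average are left out. The 2 SMC columns are mostly red and the 2 fibroblast columns mostly blue, with *Ndufa4l2* and *Cox6b2* as the clear exceptions.

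The genes at the highest level were common to all types. *Cox4i1*, the common form of subunit 4 of complex IV, averaged 856 CPM over the 6 nucleated types, with 1051 and 1122 CPM in SMCs and 608 and 659 CPM in fibroblasts. *Cox8a* averaged 668 CPM, *Atp5e* (the epsilon subunit of ATP synthase) 580 CPM, *Atp5h* (subunit d) 572 CPM and *Uqcrh* (the hinge protein of complex III) 549 CPM. *Uqcrh* was higher in lymphocytes (718 and 692 CPM) than in SMCs (628 and 619 CPM) in both aortas, but this difference did not pass the test. In all, 63 of the 84 genes averaged 100 CPM or more and 6 averaged under 10 CPM. The 3′ kit reads 1 end of each transcript, so CPM was not divided by gene length.

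Some subunit genes hold short sequence patterns near their start sites that are known from promoters of respiratory genes, and these are shown to give the sequence context of the named genes. RefSeq windows of 300 bases (250 before to 50 after the start, GRCm38.p6, both strands searched) were found for 67 of the 84 genes, in 72 windows. The letters GCGCA and GCGC with 1 free base between them, a form of the site of nuclear respiratory factor 1 (NRF1), were present in 25% of these windows (17 genes), against 4.60% of all 32851 windows. The exact palindrome, with T as the free base and contained in the former, was present in 6.94% against 0.971%. CCGGAAG, the core of ETS-family sites including that of GABP, was present in 23.6% against 8.86%, AAGATGGC (YY1) in 12.5% against 2.75%, and TNAAGGTCA (estrogen-related receptors) in 4.17% against 1.28%. Subunit genes with and without the NRF1 letters had median log2 fold changes of 0.69 (17 genes) and 0.63 (48 genes) between SMCs and fibroblasts. Matching letters are a description and show no binding.

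Stretches of 30 bases around a match are printed for some of the named genes below, on the strand of the gene, 5′ to 3′, with the matched letters in capitals.
Cox6a1: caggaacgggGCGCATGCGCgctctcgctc
Ndufa11: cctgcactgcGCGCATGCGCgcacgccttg
Ndufs5: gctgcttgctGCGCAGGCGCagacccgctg
Atp5h: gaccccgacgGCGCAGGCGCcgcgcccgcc
Sdhd: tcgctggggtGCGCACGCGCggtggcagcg
Sdhd: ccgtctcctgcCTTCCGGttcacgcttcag
Atp5e: tacggccacagCTTCCGGtagccgctcggc
The *Cox6a1* stretch lies at chr5:115349101-115349130 (minus strand), with the match 162 bases before the gene start. *Ndufa11* is shown at chr17:56717692-56717721 (plus strand, 60 bases before the start), *Ndufs5* at chr4:123718265-123718294 (minus, 98 bases) and *Atp5h* at chr11:115420041-115420070 (minus, 141 bases). *Sdhd* holds the NRF1 letters at chr9:50603909-50603938 (minus, 79 bases before the start) and the ETS letters, on the other strand, at chr9:50603877-50603906 (46 bases). The *Atp5e* stretch at chr2:174464185-174464214 (minus, 102 bases before the start) also holds the ETS letters on the other strand.

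SMCs were compared first with fibroblasts, the other main cell of the aortic wall. Of the 81 subunit genes 72 were higher in SMCs, 2 were lower and 7 did not pass the test, with a median log2 fold change of 0.66 (1.58-fold). Over all genes the background was 24.6% higher and 29.3% lower, with a median of −0.07. Levels were higher in SMCs in both aortas for 76 of the 81. Among the 63 genes at 100 CPM or more, 61 were higher and 0 lower, where 43% of all 1665 genes at such levels were higher and 30.6% lower. *Malat1* stood at 34808 and 32212 CPM in SMCs and at 41238 and 38109 CPM in fibroblasts; its part in the result was not tested.

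All complexes took part in the difference from fibroblasts. In complex I 35 of 37 genes were higher in SMCs (median 0.69), and as a total the complex was 1.51-fold higher. *Ndufb3*, an accessory subunit of the membrane arm, stood at 265 and 296 CPM in SMCs and at 116 and 117 CPM in fibroblasts (1.36, SE 0.111, adjusted p = 9.51e-10). *Ndufa12*, an accessory subunit of the matrix arm, stood at 207 and 214 CPM against 101 and 101 CPM (1.15, SE 0.099). The SMC values lay far above the fibroblast values for both genes. *Ndufs4* did not pass the test (93.9 and 100.2 CPM against 85.9 and 98.4 CPM), and *Ndufa4l2*, described below, was lower in SMCs.

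Complex II was the least different, with 2 of 4 genes called and a total 1.31-fold higher in SMCs. *Sdhc*, a membrane anchor, stood at 101 and 104 CPM in SMCs and at 58.5 and 64.3 CPM in fibroblasts (log2 fold change 0.84), and *Sdhb*, the iron-sulfur subunit, at 123 and 129 CPM against 83.0 and 95.9 CPM (0.59). *Sdha*, the flavoprotein that oxidizes succinate, stood at 75.5 and 84.9 CPM in SMCs and at 77.0 and 73.3 CPM in fibroblasts, which overlap, and *Sdhd*, the other anchor, at 54.9 and 55.2 CPM against 51.3 and 54.8 CPM. Neither passed the test (log2 fold changes 0.18 and 0.15). The 4 genes encode parts of the same enzyme, yet their levels did not differ between the cell types in step.

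In complex III all 8 genes were higher in SMCs than in fibroblasts (median 0.71, total 1.63-fold), led by *Uqcrb* with 477 and 483 CPM against 265 and 247 CPM (1.00). In complex IV 12 of 15 tested genes were higher (median 0.87), and its total differed most of all complexes, by 1.75-fold. *Cox7c* stood at 775 and 668 CPM in SMCs and at 360 and 307 CPM in fibroblasts (1.20, SE 0.164, adjusted p = 1.93e-06), and *Cox6c* at 883 and 799 CPM against 408 and 377 CPM (1.19, SE 0.122). Both are small structural subunits, and neither overlapped between the types. The complex IV genes that were not higher were *Cox6b2*, *Cox6a2* and *Cox7a1*, all of them tissue-type forms.

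In complex V 15 of 17 genes were higher in SMCs than in fibroblasts (median 0.62, total 1.44-fold). *Atp5g2*, one of the genes for the proton-carrying ring, stood at 412 and 452 CPM in SMCs and at 207 and 229 CPM in fibroblasts (1.08). The genes that missed the threshold were *Atp5d*, the delta subunit (336 and 371 CPM against 319 and 326 CPM), and *Atp5o*, a stalk subunit (236 and 241 CPM against 208 and 227 CPM); with the aorta as a block both passed, at adjusted p = 0.0416 and 0.0484. Some of the called genes were near the threshold: *Ndufb4* (log2 fold change 0.22) lost its call in 13 of 21 alternative settings and *Atp5mpl* (0.41) in 10.

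**Figure D3:**
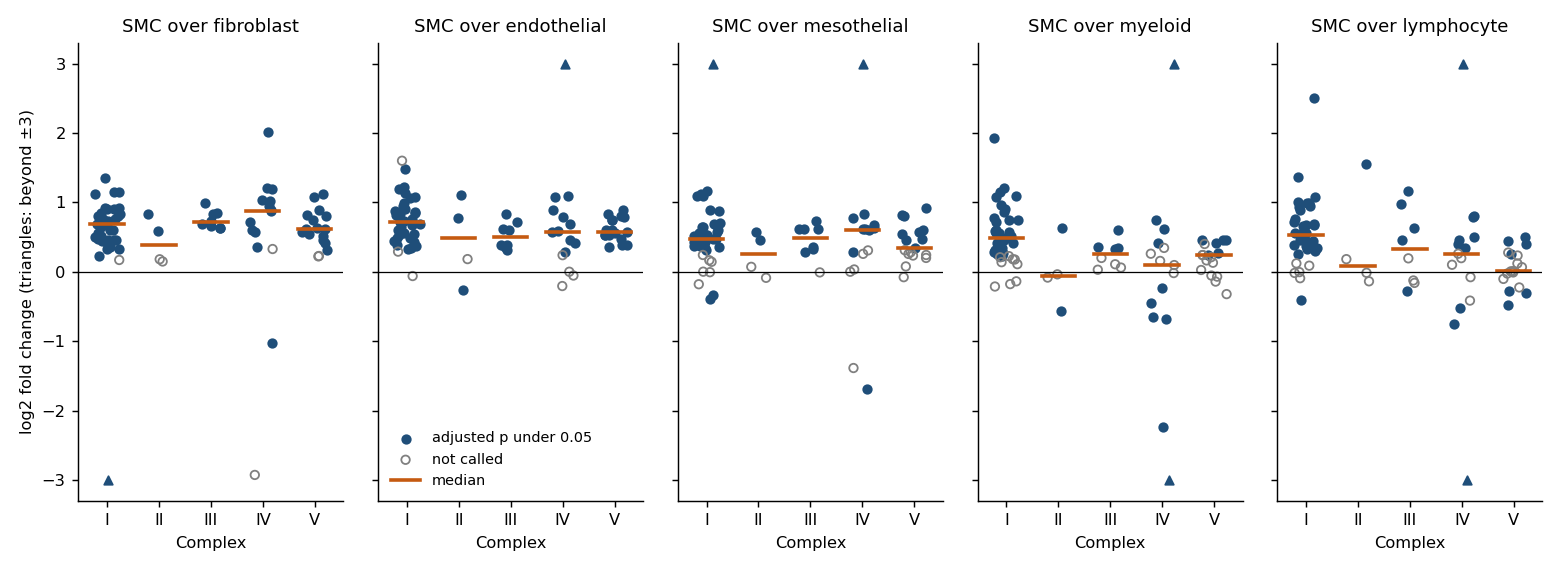
Log2 fold change of each tested subunit gene between SMCs and each other type, by respiratory complex. Filled points passed an adjusted p under 0.05, bars are medians, and triangles at the panel edges lie beyond the axis; nearly all points are above 0 against fibroblasts and endothelial cells, while complex IV against myeloid cells and complexes IV and V against lymphocytes have several filled points on both sides of 0.

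The comparison with endothelial cells gave a like count. Higher in SMCs were 72 of 81 genes and lower was 1 (median log2 fold change 0.61, all genes 0), over a background of 27.4% higher and 26.4% lower. All 5 comparisons use the same 2 SMC sums, so their counts are not independent. All 8 genes of complex III and all 17 of complex V were higher, as were 34 of complex I and 11 of complex IV. *Ndufv3*, an accessory subunit of the NADH-oxidizing module, stood at 398 and 384 CPM in SMCs and at 182 and 145 CPM in endothelial cells (1.48, SE 0.120, adjusted p = 7.24e-10). *Ndufa11* (1.19), *Ndufb3* (1.22) and *Ndufb6* (1.14) were further accessory subunits of complex I among the largest differences.

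*Sdha* was the 1 gene lower in SMCs than in endothelial cells, with 75.5 and 84.9 CPM against 104 and 121 CPM (log2 fold change −0.26, SE 0.105, adjusted p = 0.0388). The groups did not overlap, but the call was lost in 7 of 21 settings (adjusted p up to 0.370), among them leaving out either SMC sum or the endothelial sum of aorta 2, which left 0 genes lower. *Sdhc* went the other way, with 53.3 and 58.6 CPM in endothelial cells against 101 and 104 CPM in SMCs (1.10). Succinate dehydrogenase thus had its flavoprotein lower and an anchor higher in SMCs than in endothelial cells.

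Mesothelial cells, which cover the outer surface of the aorta, were nearest to SMCs in their subunit total as a share of all UMIs. Higher in SMCs were 56 of 81 genes and lower 3 (median 0.46, all genes 0.08; background 25.9% higher and 21.7% lower). Other settings gave another split. Of the called genes 94.9% were higher in SMCs with TMM and 78.1% (25 higher, 7 lower) with total UMIs as the library size. DESeq2, which differs in both scaling and test, gave 76.7% (33 higher, 10 lower). With the aorta as a block 63 were higher and 3 lower. At 10 CPM or more and after *Cox4i2*, the largest differences with SMCs higher were in accessory subunits of complex I, such as *Ndufs5* with 368 and 380 CPM in SMCs and 213 and 214 CPM in mesothelial cells (1.10, SE 0.113). *Ndufa11* (1.16), *Ndufb3* (1.12) and *Ndufv3* (1.10) were also among them.

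Lower in SMCs than in mesothelial cells were *Cox6b2* (log2 fold change −1.68), *Ndufa1* and *Ndufb4*. *Ndufa1*, a small membrane-arm subunit of complex I, stood at 223 and 202 CPM in SMCs and at 371 and 309 CPM in mesothelial cells (−0.40, SE 0.134, adjusted p = 0.0176), and *Ndufb4* at 171 and 166 CPM against 267 and 249 CPM (−0.33). Both groups were apart in each gene. Without the SMC sum of aorta 2 or the mesothelial sum of aorta 1 neither passed (adjusted p up to 0.339 and 0.157), and 1 gene, not 3, was then lower.

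Against myeloid cells the difference was smaller and uneven over the complexes. Of 81 genes 43 were higher in SMCs and 7 lower (median 0.27, all genes 0; background 34.7% higher and 33.8% lower). Among genes at 100 CPM or more, 54.0% of the subunit genes and 41.2% of all genes were higher. Complex I held 28 of the 43 higher genes and no lower one, with *Ndufb2* at 265 and 253 CPM in SMCs and 114 and 102 CPM in myeloid cells (1.21, SE 0.115), *Ndufa11* (1.15), *Ndufs5* (1.09) and *Ndufv3* (1.08). In complex IV 4 of 15 tested genes were higher and 6 lower (median 0.10), not far from the shares over all genes. The 6 include the low-level tissue-type forms *Cox6a2*, *Cox7a1* and *Cox6b2*. The total of complex IV was 1.18-fold higher in SMCs, against 1.48-fold for complex I. The difference between complexes was not tested.

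The genes lower in SMCs than in myeloid cells were led, among those at 10 CPM or more, by *Cox5a*, with 228 and 256 CPM against 350 and 397 CPM (log2 fold change −0.68, SE 0.101, adjusted p = 4.02e-06). *Cox6b1* stood at 364 and 368 CPM in SMCs and at 489 and 476 CPM in myeloid cells (−0.45), and *Sdhd* at 54.9 and 55.2 CPM against 78.1 and 79.4 CPM (−0.57). The groups did not overlap for any of these 3. *Cox6b2* (−0.65) did not pass without the myeloid sum of aorta 1 (adjusted p = 0.246), and *Cox7a2l* (−0.24) lost its call in 12 of 21 settings. *Cox6a2* and *Cox7a1*, under 10 CPM, were lower as well and are described with the tissue-type forms.

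Lymphocytes gave 47 genes higher and 8 lower in SMCs (median 0.38, all genes 0.03), over a background of 36.1% higher and 33.8% lower. Of the called genes 85.5% were higher with TMM and 61.2% (30 higher, 19 lower) with DESeq2. By complex, complex I had 31 higher and 1 lower gene (median 0.52). Complex V had 4 higher and 3 lower of 17 genes (median 0.01), both below the shares over all genes, and a total only 1.03-fold higher in SMCs. The difference between complexes was not tested. Among genes at 10 CPM or more that were higher in SMCs, *Sdhc* followed *Cox4i2*, with 101 and 104 CPM in SMCs and 35.2 and 35.1 CPM in lymphocytes (1.56, SE 0.119, adjusted p = 1.81e-10). *Ndufb2* (1.36), *Uqcrb* with 205 and 230 CPM in lymphocytes (1.16), and *Ndufv3* (1.07) followed.

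Lower in SMCs than in lymphocytes was *Cox7a2l*, which encodes a protein that links complexes III and IV into supercomplexes, with 263 and 273 CPM against 457 and 453 CPM (log2 fold change −0.75, SE 0.105, adjusted p = 1.88e-06). *Cox5a* stood at 348 and 355 CPM in lymphocytes (−0.52) and *Ndufs4* at 133 and 126 CPM, against 93.9 and 100.2 CPM in SMCs (−0.41). *Atp5mpl* (−0.48) and *Atp5f1*, a stalk subunit (−0.30), were also called. The call of *Ndufs4* was lost without the lymphocyte sum of aorta 1 (adjusted p = 0.0571), those of *Atp5mpl* and *Atp5f1* without this sum or that of SMCs from aorta 2 (up to 0.312 and 0.167), and that of *Atp5f1* also without the SMC sum of aorta 1. With these sums left out in turn, 4 or 5 genes, not 8, were lower. A cycling cluster of 42 and 32 lymphocytes had the highest subunit share of any lymphocyte cluster, at 3.06% and 2.86% of UMIs.

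*Cox4i2* was higher in SMCs than in every other type when the clusters of a type were summed, although 2 fibroblast clusters, described below, lay above the largest SMC cluster in both aortas. It lies at chr2:152754173-152765037 (plus strand, GRCm38) and encodes the alternative form of subunit 4, known from lung and from oxygen-sensing cells. SMCs reached 30.2 and 30.5 CPM and fibroblasts 7.52 and 8.67 CPM. Endothelial cells had 0.940 and 0.791 CPM, myeloid cells 0.980 and 0.274 CPM and lymphocytes 1.35 and 0 CPM, and mesothelial cells had 0 UMIs. As sums, SMCs lay above all other types in both aortas, and fibroblasts above the remaining 4. The fibroblast clusters led by *Myoc*, by *Igfbp3* and by *Pla1a* had at most 1 *Cox4i2* UMI in an aorta. The log2 fold change was 2.01 against fibroblasts (SE 0.188, adjusted p = 1.32e-08), 5.29 against endothelial cells, 5.31 against myeloid cells and 5.14 against lymphocytes. Against mesothelial cells SMCs were at least 28.6-fold higher, with 3 counts over both aortas as the floor. All alternatives kept the call against fibroblasts, with fold changes from 1.75 to 2.54.

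Summed over clusters, the fibroblast level of *Cox4i2* was above what SMC markers reached there. Its UMIs lay mainly in the clusters led by *Dio2* (38 and 37), by *Fmod* (21 and 6) and by *Mab21l2* and *Nrn1* (17 and 17). *Cox4i2* in fibroblasts was 24.9% and 28.4% of its SMC level, whereas the SMC markers together stood at 6.55% and 6.32% of theirs. With each cell thinned to 1000 UMIs, a *Cox4i2* UMI was found in 3.38% of SMCs in aorta 1 (exact 95% interval 2.67 to 4.21) and in 2.35% in aorta 2 (1.67 to 3.21). In fibroblasts the share was 0.731% (0.378 to 1.27) and 0.352% (0.0959 to 0.898), and in endothelial cells, which serve as background, 0 of 785 and 0 of 729. Unthinned, 14.5% and 15% of SMCs had a UMI. These intervals cover counting error only. *Cox4i1* remained the main form in SMCs, with 34.8 and 36.7 UMIs for each *Cox4i2* UMI.

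*Ndufa4l2* had the opposite pattern, with its highest level in fibroblasts. The gene lies at chr10:127514967-127517154 (plus strand) and encodes a relative of NDUFA4. It stood at 104 and 90.6 CPM in fibroblasts (1065 and 627 UMIs), 5.41 and 1.37 CPM in SMCs (90 and 16 UMIs), and at most 1.88 CPM in endothelial cells, myeloid cells and lymphocytes; mesothelial cells had 0 UMIs. Fibroblasts lay far above every other type in both aortas. The log2 fold change of SMCs over fibroblasts was −4.63 (SE 0.255, adjusted p = 2.96e-12), the largest of any subunit gene in this comparison, and it lay from −6.05 to −4.05 over all alternatives. Fibroblasts were at least 91.6-fold higher than mesothelial cells. *Ndufa4* itself was lower in fibroblasts (351 and 361 CPM) than in SMCs (621 and 644 CPM), so fibroblasts had 3.37 and 3.98 *Ndufa4* UMIs for each *Ndufa4l2* UMI.

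Much of the *Ndufa4l2* signal of the SMC clusters came from 1 cell whose own markers go against that name. Of the 90 UMIs in aorta 1, 58 lay in 1 cell of the cluster of low depth, and without this cell the level was 1.93 CPM. The cell had 0 UMIs of *Myh11* and *Acta2*, which define SMCs, and 13 tdTomato against 1 eGFP UMI. Relative to fibroblasts, SMCs had 5.21% and 1.51% of the *Ndufa4l2* level and 4.14% and 4.35% of the fibroblast markers. *Ndufa4l2* was also called higher in SMCs than in mesothelial cells, myeloid cells and lymphocytes (adjusted p = 0.0160, 0.0161 and 0.0308). The calls against myeloid cells and lymphocytes were lost without the cluster that holds this cell and without the SMC sum of aorta 1, that against myeloid cells also without the myeloid sum of aorta 2, that against lymphocytes without either lymphocyte sum, and that against mesothelial cells without the mesothelial sum of aorta 1 (adjusted p up to 0.501, 0.276 and 0.154). Thinned to 1000 UMIs, 8.41% and 8.44% of fibroblasts had a *Ndufa4l2* UMI, against 0.315% and 0.123% of SMCs.

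**Figure D4:**
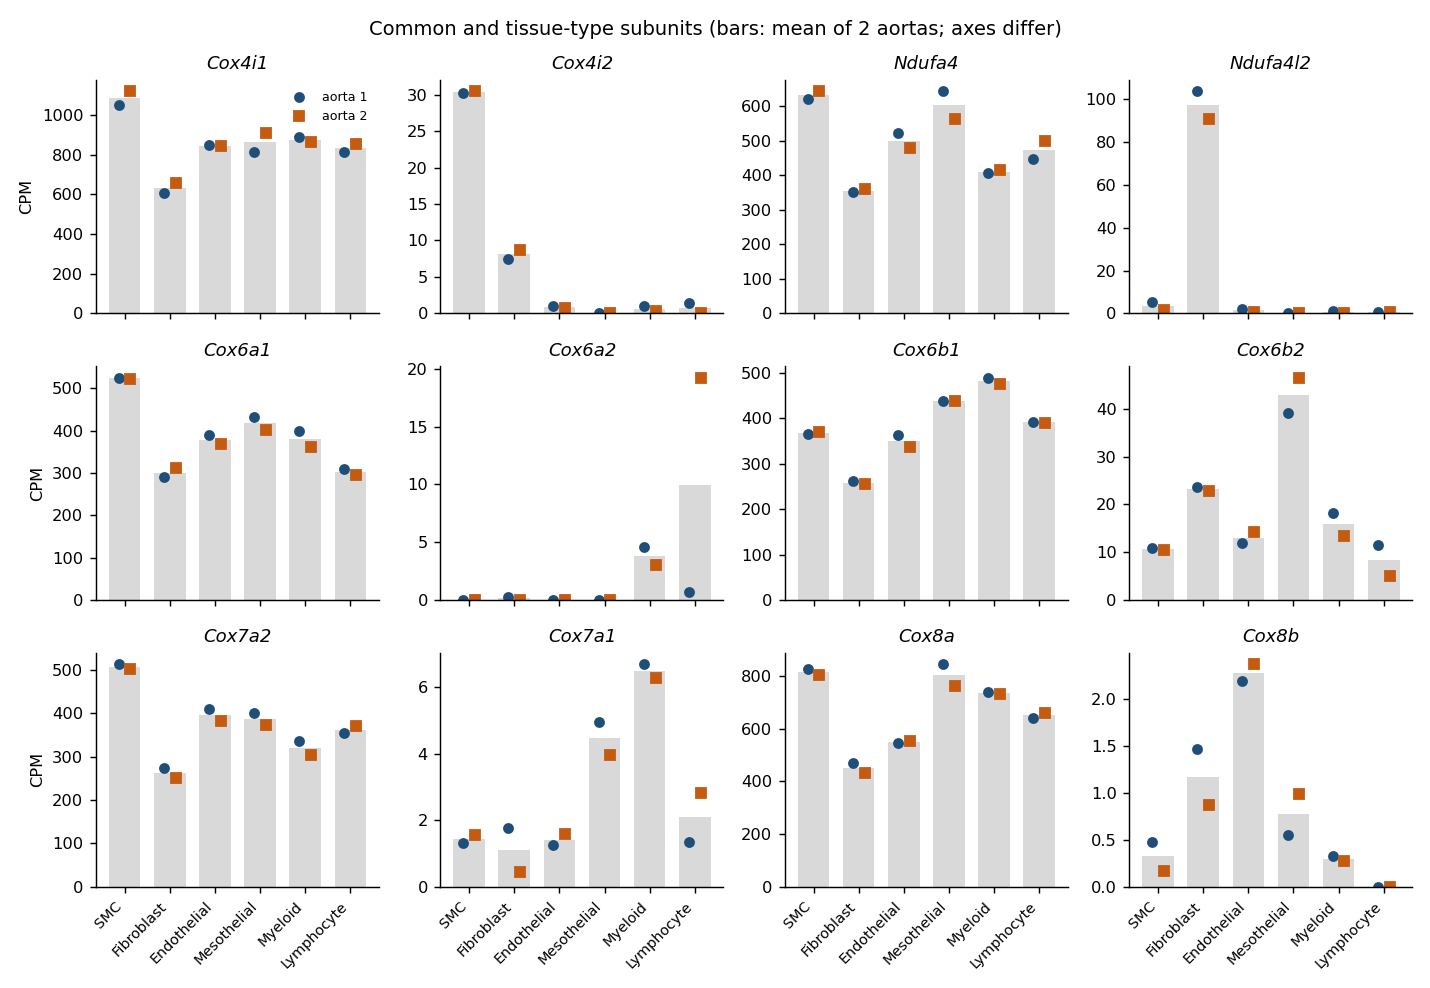
CPM of common subunits and their tissue-type forms by cell type; bars are means of 2 aortas, points single aortas, and the vertical axes differ between panels. *Cox4i2* is highest in SMCs (30.2 and 30.5 CPM) and *Ndufa4l2* in fibroblasts (104 and 90.6 CPM), while *Cox7a1* and *Cox8b* stay under 10 CPM in every type and *Cox6a2* does so except for lymphocytes of aorta 2 (19.2 CPM).

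The muscle forms were close to absent from aortic SMCs. *Cox6a2* had 0 UMIs in SMCs of both aortas, although the common form *Cox6a1* stood at 525 and 521 CPM there. With 3 counts over both aortas as the floor, this allows a level of up to 0.106 CPM. *Cox6a2* was found in myeloid cells (28 and 11 UMIs), which were at least 35.8-fold higher than SMCs, and in lymphocytes with 2 and 34 UMIs (0.676 and 19.2 CPM). The lymphocyte value of aorta 2 rests on few cells, since 1 cell of that aorta held 20 UMIs and 30 of the 34 lay in the cycling cluster. In edgeR SMCs were lower than myeloid cells (adjusted p = 0.00027) and lymphocytes (5.41e-05), but with DESeq2 neither passed, with adjusted p over all alternatives up to 0.181 and 0.131.

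*Cox7a1*, the other muscle form, gave 1.32 and 1.54 CPM in SMCs (22 and 18 UMIs), 1.76 and 0.433 CPM in fibroblasts, 4.96 and 3.96 CPM in mesothelial cells and 6.70 and 6.30 CPM in myeloid cells. Myeloid cells lay above SMCs in both aortas, with a log2 fold change of −2.23 for SMCs (SE 0.387, adjusted p = 3.35e-05). Against fibroblasts no difference was detected (0.33, SE 0.470), and the value ran from −0.22 to 1.75 when 1 sum was left out. The common *Cox7a2* stood at 513 and 502 CPM in SMCs. *Cox8b* reached at most 2.37 CPM, in endothelial cells, against 828 and 803 CPM for *Cox8a* in SMCs, *Cox8c* had 0 UMIs, and *Cox7b2* had 3. Striated muscle markers summed to 28.9 and 26.6 CPM in SMCs (*Myh4* and *Myh1* at 0, 8 of 10 with a UMI), and adipocyte markers to 115 and 132 CPM (*Adipoq*, *Plin1* and *Lep* at 0, 4 of 7 with a UMI).

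*Cox6b2*, at chr7:4751792-4753094 (minus strand), was low in SMCs with 10.9 and 10.5 CPM. It stood at 39.1 and 46.6 CPM in mesothelial cells, 23.7 and 22.8 CPM in fibroblasts, and 18.3 and 13.4 CPM in myeloid cells, while endothelial cells had 11.9 and 14.2 CPM and lymphocytes 11.5 and 5.09 CPM. Mesothelial cells and then fibroblasts stood above all other types in both aortas, while SMCs overlapped with lymphocytes. The log2 fold change of SMCs was −1.68 against mesothelial cells (SE 0.210, adjusted p = 7.05e-07) and −1.03 against fibroblasts (SE 0.164, adjusted p = 1.55e-05). Its partner *Cox6b1* was 364 and 368 CPM in SMCs and 437 and 438 CPM in mesothelial cells. *Cox7a2l* was highest in lymphocytes and *Cox7a2* in SMCs.

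Within fibroblasts and SMCs the alternative forms varied among clusters. These values are a description without a test. Among fibroblast clusters *Ndufa4l2* stood at 185 and 192 CPM in the cluster led by *Fmod* and *Vegfd*, 130 and 103 CPM in that led by *Dio2* and *Adamtsl2*, 69.6 and 57.8 CPM in that led by *Igfbp3*, 65.8 and 69.1 CPM in that led by *Myoc*, 23.5 and 11.2 CPM in that led by *Mab21l2* and *Nrn1*, and 6.43 and 4.09 CPM in that led by *Pla1a* and *Dact2*. The order of the clusters was nearly alike in both aortas. *Cox4i2* in fibroblasts was highest in the *Dio2* cluster (19.8 and 42.9 CPM) and the *Nrn1* cluster (23.5 and 47.6 CPM). Among SMC clusters it stood at 15.8 and 22.3 CPM in the largest, led by *Mylk4* and *Postn*, and at 58.1 and 42.9 CPM in that led by *Lrrtm3* and *Rgs5*. The cluster led by *Pln* and *Atf3* had 28.4 and 47.1 CPM and that of low depth 47.7 and 13.5 CPM. In the cluster of low depth, 23 of the 57 *Cox4i2* UMIs of aorta 1 lay in the 1 cell described above.

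**Figure D5:**
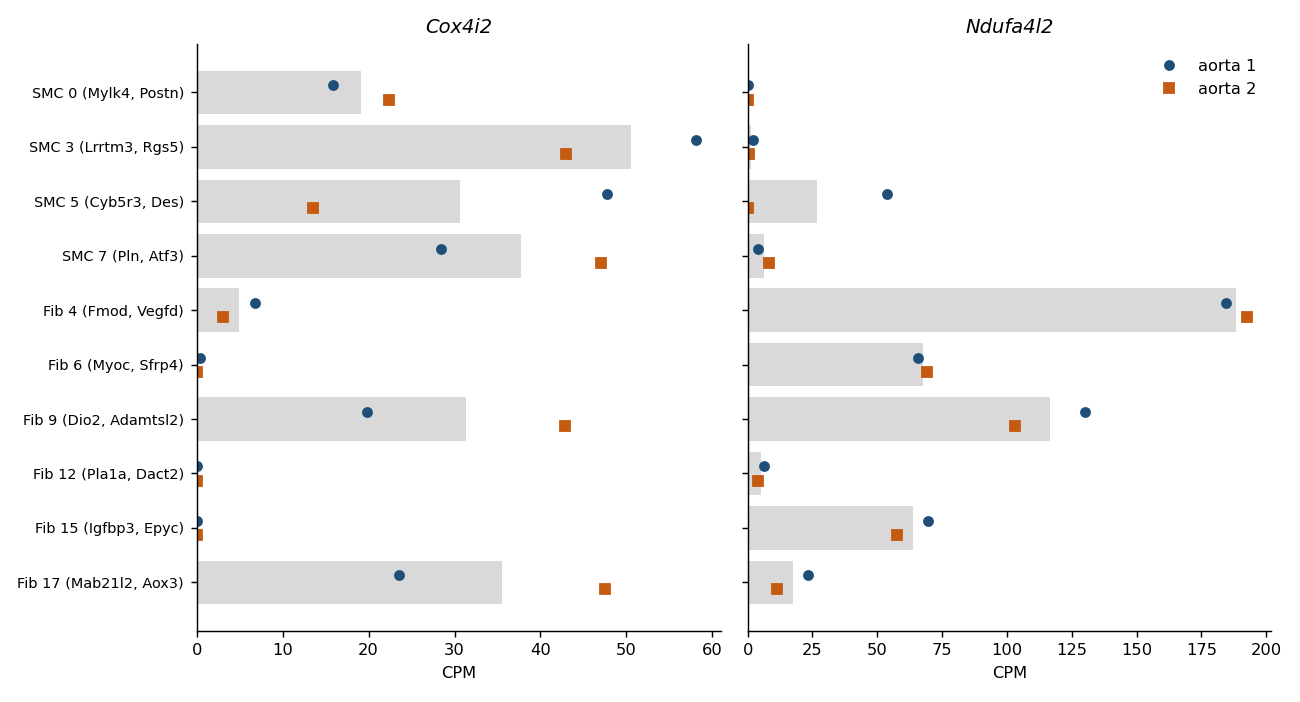
CPM of *Cox4i2* and *Ndufa4l2* in the SMC and fibroblast (Fib) clusters, each named by its number and 2 leading genes; bars are means of 2 aortas and points single aortas. *Ndufa4l2* is highest in the *Fmod* and *Vegfd* fibroblasts (185 and 192 CPM), and the aorta 1 value of SMC cluster 5 (53.6 CPM) rests on 1 cell.

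The share of all subunits also varied among clusters. The 3 SMC clusters with higher UMI totals ranged from 2.24% to 2.50% of UMIs, and that of low depth had 3.05% and 2.90%. Fibroblast clusters ranged from 1.44% to 2.16%, with the highest values in the *Nrn1* cluster (1.85% and 2.16%). Lymphocyte clusters ranged from 1.45% in the B cell-like cluster of aorta 2 to 3.06% in the cycling one, and myeloid clusters from 1.32% in the cluster led by *S100a9* to 2.31% in that led by *Slpi* and *Alox15*. When SMCs were clustered on their own, a group of 70 and 68 cells led by *Malat1* and other nuclear RNAs had 1.08% and 1.05%, the lowest of any SMC group. For *Cox4i2*, the groups led by *Nrn1* and by *Pln* with *Notch3* stood at 137 and 92.5 CPM and at 106 and 81.5 CPM. These were the highest values in aorta 2. In aorta 1 the group led by *Gdf15* and *Cdkn1a* lay between them, at 108 CPM (41.3 CPM in aorta 2). That group holds the cell with most *Ndufa4l2* UMIs, which gave 23 of the group's 41 *Cox4i2* UMIs in aorta 1.

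Other genes of mitochondrial energy supply were counted by direction in the same fit. Their counts are to be read against the shares over all genes given above, which for higher in SMCs were 24.6%, 27.4%, 25.9%, 34.7% and 36.1% for fibroblasts, endothelial, mesothelial and myeloid cells and lymphocytes. None of the 13 mitochondrially encoded genes was called lower in SMCs than in any of the 5 other types. Higher were 7 against fibroblasts, 8 against endothelial cells, 12 against mesothelial cells, 12 against myeloid cells and 11 against lymphocytes. Subunits and carriers outside the name pattern gave 4 higher and 1 lower of 8 against fibroblasts, with *Ndufab1*, the mitochondrial acyl carrier protein and a complex I subunit (200 and 223 CPM against 106 and 106 CPM, log2 fold change 1.08), and *Cycs*, cytochrome c (0.95). *Etfb*, of the electron transfer flavoprotein, was lower in SMCs (−0.32). Against the other 4 types this list gave 5 and 0, 4 and 2, 3 and 2, and 4 and 1 genes higher and lower, in the order endothelial, mesothelial, myeloid and lymphocyte, which is kept below.

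Of 45 tested assembly factors of the complexes 18 were higher and 1 lower in SMCs against fibroblasts (median 0.28). *Cox17*, which carries copper to complex IV, stood at 225 and 183 CPM against 87.3 and 65.7 CPM (1.50), and *Nubpl* of complex I at 6.01 and 6.34 CPM against 2.73 and 3.32 CPM (1.13). *Sco2* was lower (−0.60). The other types gave 17 and 2, 12 and 2, 14 and 6, and 10 and 8. The share higher was 40% against fibroblasts, near the share over all genes against mesothelial cells (26.7%), and below it against myeloid cells (31.1%) and lymphocytes (22.2%). Mitochondrial ribosomal proteins, which make the mitochondrially encoded subunits, gave 56 higher and 1 lower of 78 against fibroblasts (median 0.46), led by *Mrpl34* (1.10) and *Mrps36* (0.96), with *Mrps33* lower (−0.38). They gave 48 and 2, 29 and 1, 28 and 8, and, against lymphocytes, 18 and 24 genes. Their share higher was 71.8% against fibroblasts and, near that over all genes, 35.9% against myeloid cells. Against lymphocytes 23.1% were higher and 30.8% lower, both below the 36.1% and 33.8% over all genes.

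Tricarboxylic acid (TCA) cycle genes, which supply NADH and succinate, gave 12 higher and 1 lower of 13 against fibroblasts (median 0.64), with *Suclg2* (1.33) and *Fh1* (0.83) leading and *Dlst* lower (−0.26). The other types gave 11 and 0, 6 and 2, 9 and 1, and 7 and 1. Glycolysis gave 15 higher and 0 lower of 16 against fibroblasts, with a median of 0.98, where the respiratory subunits had 0.66. *Hk2*, a hexokinase, stood at 21.9 and 21.0 CPM against 3.81 and 2.75 CPM (2.76), and *Aldoc*, with the largest fitted fold change, at only 0.722 and 0.514 CPM against 0.0976 and 0 CPM; the other types gave 14 and 1, 8 and 1, 7 and 4, and 9 and 4. Fatty acid oxidation went both ways, with 5 higher and 4 lower of 12 against fibroblasts. *Acads* (0.89) and *Acadm* (0.62), acyl-CoA dehydrogenases, were higher, and *Cpt1a*, the gate of fatty acid entry (−1.19), and *Acaa2* (−1.15) lower; the other types gave 6 and 1, 2 and 4, 6 and 3, and 8 and 2.

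Regulators of mitochondrial biogenesis showed few differences, with 1 higher and 3 lower of 14 against fibroblasts. *Ppargc1b*, a coactivator of respiratory genes, was higher (2.31), and *Ppargc1a*, its better known relative, was lower (−1.06), as was *Pprc1* (−0.78). The third lower gene, named after its value was seen, was *Nrf1*, whose product binds the site described above, with 15.5 and 15.3 CPM in SMCs and 21.2 and 20.7 CPM in fibroblasts (−0.35, SE 0.137, adjusted p = 0.0356). The other types gave 3 and 2, 2 and 0, 2 and 3, and 2 and 5, so that in every comparison a smaller share was higher than over all genes. Hypoxia-response genes gave 10 higher and 2 lower of 12 against fibroblasts, with *Egln3* (3.41) and *Car9* (0.601 and 0.257 CPM in SMCs, 0 in fibroblasts) most different and *Adm* (−1.52) and *Vegfa* (−1.41) lower. *Ndufa4l2*, a known target of the same factor, was thus lower in SMCs where 10 of these 12 genes were higher. The other types gave 8 and 2, 4 and 4, 8 and 3, and 8 and 3.

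Cytosolic ribosomal protein genes served as a further comparison, because they are also short, abundant and used by every cell. The pattern for this list also caught the kinases of the *Rps6k* family, and with those left out 24 of 84 genes were higher and 0 lower in SMCs against fibroblasts (median 0.28). This is 28.6% higher, against 24.6% over all genes and 43% over genes at 100 CPM or more, while the respiratory subunits had 88.9%. With the kinases kept, the counts were 26 and 1 of 92. Without the kinases the other types gave 10 and 3, 41 and 0, 0 and 51, and 1 and 80, and with them 10 and 8, 42 and 2, 0 and 56, and 2 and 82.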

How the data were processed

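Single-cell libraries (10x Genomics 3′ v3.1 kit) of 2 aortas were analysed. The deposited files hold raw UMI counts per gene and cell, made with Cell Ranger 4.0.0 per the file headers and mapped to mm10; the authors' notes also name Seurat 4.0. Cells with over 200 genes, 1000 to 25000 UMIs and under 10% mitochondrial UMIs were kept (6744 and 4698), and 205 and 84 cells called as doublets with Scrublet were removed. The study's own cell names were not used here.

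Counts were scaled to 10000 per cell and clustered (scanpy 1.11.5, leidenalg 0.10.2, Python 3.11.15; 2000 variable genes, 30 components, 15 neighbours, resolution 1), with the subunit genes, mitochondrial genes and reporters left out of the variable genes. Of 30 clusters 29 were named, each from 3 or more markers found in at least 25% of its cells, with under 2 of its 10 leading genes from another class. Clusters whose median depth was under 33.3% of their aorta's were named only if markers of their class were among these leading genes, which kept the SMC cluster of low depth and 2 myeloid clusters. Counts were then summed per aorta and cell type (at least 10 cells) and tested with edgeR 4.0.16 in R 4.3.3 (quasi-likelihood test, TMM scaling, filterByExpr, cell type as the only term, Benjamini-Hochberg adjustment). This test was checked on simulated counts. DESeq2 1.42.0 was an alternative.

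The aortas come from separate animals, so n = 2 throughout, and p-values measure the spread between 2 animals. Sums with the same number come from the same animal; their deviations from the type means correlated at r = −0.013 to 0.208 (median 0.11) over 15 pairs of types and 6972 genes at 20 CPM or more. A fit with the aorta as a replicate block was an alternative.

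The subunit genes and gene lists were chosen with earlier results of these data known. Named genes were, per comparison, up to 5 in each direction with the largest fold change among those called and at 10 CPM or more in the higher type, the 5 at the highest mean level, the tissue-type forms with their common partners, and the 4 *Sdh* genes. *Atp5g2*, *Atp5d*, *Atp5o* and *Cox7b2* fall outside this rule, and *Uqcrb*, *Ndufs4*, *Ndufb4* and *Atp5mpl* are named by it for other types but not for fibroblasts; their mention there was chosen after their values were seen. In the other lists the most changed genes of each direction against fibroblasts were named. Gene positions are from GENCODE M21 (GRCm38). The distances of matched letters to a gene start are not counted from these positions and differ from distances to them. *Cox4i1*, *Ndufa13*, *Ndufb2*, *Ndufb8*, *Ndufb9* and *Atp5o* overlap another protein-coding gene model on the same strand, so their counts are less certain.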

Additional observations from a re-analysis of the deposited data

How the results depend on the processing

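With 1 sum left out at a time, the subunit genes called between SMCs and another type numbered 68 to 72 for fibroblasts (66 to 70 higher in SMCs, 2 lower), 65 to 69 for endothelial cells (65 to 69 higher, 0 to 1 lower), 46 to 51 for mesothelial cells (45 to 50 higher, 1 to 3 lower), 39 to 44 for myeloid cells (32 to 38 higher, 5 to 7 lower) and 45 to 47 for lymphocytes (40 to 42 higher, 4 to 6 lower). Where such a sum is the only one of its type, it is assumed to vary like the other types. With DESeq2, 33 genes were higher and 10 lower than in mesothelial cells, 30 higher and 19 lower than in lymphocytes, and 3 lower than in endothelial cells. Without TMM, 32 genes were called against mesothelial cells (25 higher, 7 lower) and 3 were lower than in endothelial cells. Of the endothelial calls 3 were lower in a fit of the 2 types alone, 2 without the SMC cluster of low depth, 0 without the erythroid sums and 0 with a stricter naming of clusters. That naming left 4 genes lower than in lymphocytes, and no filter on low counts left 5. The cause of these shifts was not tested. The stricter naming, the omission of the cluster of low depth, of the cycling cluster and of the erythroid sums were chosen after seeing the data.

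The log2 ratio of the subunit total between SMCs and fibroblasts, 0.63, was 0.72 with TMM-scaled totals, 0.67 without mitochondrial and ribosomal protein genes in the total, 0.66 without UMI limits, 0.66 with a mitochondrial limit of 20%, 0.67 with no such limit, 0.65 with doublets kept, 0.67 and 0.65 at resolutions of 0.5 and 2, 0.65 with the stricter naming, 0.61 without the SMC cluster of low depth, and 0.62 to 0.64 in the single aortas. For the mitochondrially encoded total, 0.31, the same changes gave 0.40 (TMM), 0.35 (total), 0.28 (limit of 20%), 0.27 (no limit), 0.28 (doublets) and 0.34 (naming), cells of 5000 to 25000 UMIs gave 0.41, and the single aortas 0.29 to 0.32. In some comparisons the median over all genes differed by over 0.1 between edgeR with TMM and DESeq2. With DESeq2 this median was −0.32 for fibroblasts, −0.21 for endothelial cells, −0.22 for mesothelial cells, −0.04 for myeloid cells and −0.20 for lymphocytes. The subunit median minus the median of all genes was 0.73, 0.61, 0.38, 0.27 and 0.35 with edgeR and 0.73, 0.61, 0.38, 0.25 and 0.35 with DESeq2.

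The replicate block gave 74 higher and 2 lower genes against fibroblasts, 74 and 1 against endothelial cells, 63 and 3 against mesothelial cells, 50 and 8 against myeloid cells, and 49 and 8 against lymphocytes. Under this pairing 21 calls were gained and 0 lost. Counts of called genes stayed within 1.5 times the main count in most settings, with the exceptions above. The 2 summed ratios were less stable: by the SD between aortas as the tolerance, the subunit total stayed within it in 2 of 12 alternatives and the mitochondrially encoded total in 5 of 12, all with the same direction. Genes under 10 CPM rest on few UMIs in the types with small sums, such as mesothelial and erythroid cells.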

Other observations

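Some subunit genes differed between the 2 aortas in every cell type. Of the 63 subunit genes at 100 CPM or more, 15 (23.8%) were higher in aorta 1 in all 6 nucleated types, where 6.79% of all 1665 genes at such levels were, and 6 (9.52%) were lower in all 6, where 8.11% were. *Atp5k*, a small membrane subunit of ATP synthase, differed most, by a mean of 0.44 on the log2 scale (0.20 to 0.59 over the types). It was followed by *Atp5md* (0.39), *Ndufa3* (0.34), *Atp5mpl* (0.31), *Cox7c* (0.24), *Ndufa1* (0.22) and *Ndufc1* (0.22). With 1 library per animal, the animal and the library cannot be told apart, and the difference has no replicate.

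The cell that held most *Ndufa4l2* UMIs of SMCs in aorta 1 also stood out in other genes. This was seen after the values were known. It had 12609 UMIs, 9.14% of them mitochondrial, and held 58 *Ndufa4l2*, 23 *Cox4i2*, 10 *Cox4i1* and 4 *Ndufa4* UMIs, so that both alternative forms outnumbered their common partners. It also held 92 *Chga*, 341 *Chgb*, 10 *Th*, 16 *Tph1*, 11 *Syp* and 185 *Rgs5* UMIs and 0 of *Acta2* and *Myh11*. In any other cell the highest counts were 13 for *Ndufa4l2* and 11 for *Cox4i2*. *Chga* marked 2 further cells, also of aorta 1. One had 1008 UMIs with 17 *Chga*, 5 *Ndufa4l2* and 2 *Cox4i2*, and the other, removed by the mitochondrial limit, had 1500 UMIs with 18 *Chga*, 11 *Ndufa4l2* and 4 *Cox4i2*. Without the first cell, SMCs of aorta 1 stood at 1.93 CPM for *Ndufa4l2* and 28.8 CPM for *Cox4i2*.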
